A study of Homo sapiens with 36 samples.

Results

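The genes described here were 10 members of the NF-κB system, chosen by symbol. NFKB1, NFKB2, RELA and RELB are subunit genes, and NFKBIA, NFKBIE and NFKBIZ are IκB genes. TNFAIP3, BIRC3 and MAP3K8 act in the signalling upstream of the subunits. All 10 were found among the 27852 genes with a symbol in the table, and all 10 were protein-coding in the GENCODE 29 annotation. RNA was sequenced from 36 cultures of 4 PCa cell lines harvested on day 5. C4-2 and C4-2B, sublines of LNCaP, were used as BPCa (osteoblastic) lines, and DU145 and 22Rv1 as LPCa (osteolytic) lines, so each class rests on 2 established lines. For each line, 3 libraries came from PCa cells alone, 2 from PCa cells beside MG63 cells, 2 from PCa cells alone given mouse RANKL (50 ng/mL), and 2 from PCa cells beside RAW264.7 cells at that RANKL dose. The partner cells shared the medium with the PCa cells through a filter, and only the PCa side was sequenced. MG63 cells come from a human osteosarcoma and stood in for OBs. RAW264.7 cells, which the sample labels spell RAW246.7, are mouse macrophages that form OCs when given RANKL.

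In resting cells NF-κB dimers are held in the cytoplasm by IκB proteins such as the product of NFKBIA. Signals from IL-1, TNF or Toll-like receptors lead to the loss of these inhibitors, and the dimers enter the nucleus and bind κB sites in DNA. Many of the genes they switch on encode parts of the system itself, including its inhibitors, so that transcripts of NFKBIA, NFKBIE, TNFAIP3 and BIRC3 are commonly read as feedback targets. RANK, the receptor of RANKL, and the lymphotoxin β receptor also feed a slower branch that runs through NFKB2 and RELB.

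The sequences before the start sites are shown because they hold the letters that NF-κB binds. RefSeq gave start-site windows, on GRCh38.p14, for 8 of the 10 genes, with no entry for RELB and NFKBIE. The κB consensus, a motif of 10 bases searched by name on both strands in the 250 bases before each start, had a match in some window of 7 of these 8 genes, and RELA had none in these letters. The same search found a match in a window of 11.8% of 27305 genes and in 9.96% of 35116 windows. Neighbouring matches that overlap or lie a few bases apart were counted as 1 stretch below. The capitals mark the matched bases, each line runs 5′ to 3′ on the strand of the gene, and a match is only a match of letters, since no binding was measured.
BIRC3, chr11:102317275-102317304, + strand: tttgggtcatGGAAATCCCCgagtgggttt
BIRC3, chr11:102317339-102317368, + strand: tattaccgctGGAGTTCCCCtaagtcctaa
TNFAIP3, chr6:137867188-137867217, + strand: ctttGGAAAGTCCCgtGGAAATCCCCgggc
NFKBIA, chr14:35404811-35404840, - strand: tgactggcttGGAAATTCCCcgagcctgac
MAP3K8, chr10:30433982-30434011, + strand: ggggagacgcGGAATTTCCCagcgcggggg
NFKB1, chr4:102501300-102501329, + strand: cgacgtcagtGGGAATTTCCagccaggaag
NFKB2, chr10:102395674-102395703, + strand: tggtattttcGGGACTTTCCtaagctgctc
NFKBIZ, chr3:101827757-101827786, + strand: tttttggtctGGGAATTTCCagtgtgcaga

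The lines are a selection from 13 distinct stretches, and NFKB2 had 3 more, MAP3K8 1 more and NFKBIZ 1 more. TNFAIP3 and BIRC3 each had a pair of matches within 1 window, and NFKB2 had 3 in one window and 2 in another. In TNFAIP3 the pair lay 67 to 46 bases before the RefSeq start, 2 bases apart. The BIRC3 matches began 199 and 135 bases before the start, and the NFKBIA match began 81 bases before it.

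Total counts ranged from 23932472 to 36719047 in the 12 mono-cultures without RANKL. In the 24 other libraries they ranged from 9593426 to 15418211, a median 2.46 times lower, so depth differed along with culture in every comparison with those mono-cultures. Levels are given in CPM, the share of a library's total scaled to 1e6, and 3 counts correspond to at most 0.313 CPM in any library, a limit that covers counting error only. Nothing in the labels says that replicates came from separately thawed or passaged cells, so the p-values measure the spread between these cultures. DU145 with MG63 replicate 2 stood apart. It differed from replicate 1 by an rms of 0.621 on the log2 scale over genes, against 0.282 or less in the 23 other pairs, and 5.46% of its counts fell on nonsense-mediated decay transcripts, against 3.13% to 3.75% in the 35 other libraries. For DU145 with MG63 against mono-cultures without RANKL, the tests of single members and the counts of members called by adjusted p are therefore given with and without it.

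DU145 had the highest mono-culture level of 8 of the 10 members, and 22Rv1 that of the other pair, NFKB2 and NFKBIZ. A gene was called where edgeR's quasi-likelihood test gave a Benjamini-Hochberg adjusted p under 0.05 over all genes tested. All 10 members were called between DU145 and each of the other lines, beside 79.6% of all genes against 22Rv1, 78.3% against C4-2 and 79% against C4-2B. Between 22Rv1 and C4-2 the count was 7, beside 72% of all genes, and between 22Rv1 and C4-2B it was 6, beside 72.6%. Between the related lines C4-2 and C4-2B only NFKB1 was called by edgeR, beside 13.6% of all genes. At an unadjusted p under 0.05 there were 5 members, beside 25.4% of all genes. DESeq2 called 3 there, adding NFKBIA and MAP3K8. With the lines averaged by class, 8 members were called between BPCa and LPCa, 1 higher and 7 lower in BPCa, beside 79.8% of all genes. These shares lie near those of all genes, apart from the full count in DU145.

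BIRC3 encodes cIAP2, a ubiquitin ligase that works at the TNF receptor. Its mono-culture level was 76.3, 80.9 and 77.8 CPM in DU145, and at most 1.73 CPM in any mono-culture of the 3 other lines. DU145 therefore stood alone, with a log2 difference of 5.69 ± 0.17 (SE) from 22Rv1 (edgeR adjusted p = 2.1e-14). The order of the other lines was 22Rv1, C4-2B and C4-2 by mean, and no neighbours in it were called. Without C4-2 mono-culture replicate 2, 22Rv1 was called above C4-2 (log2 0.89, edgeR adjusted p = 0.0018).

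TNFAIP3 encodes A20, which edits ubiquitin chains and shuts the pathway off. It stood at 9.19, 11.3 and 7.60 CPM in DU145 mono-cultures, and between 0.525 and 1.58 CPM in the 9 others. The C4-2, C4-2B and 22Rv1 cultures were not called apart from each other for this gene, although C4-2 was called above C4-2B without C4-2 mono-culture replicate 1 (log2 1.29, edgeR adjusted p = 0.030) and 22Rv1 above C4-2B without 22Rv1 mono-culture replicate 3 (1.07, adjusted p = 0.023). RELB, the subunit that pairs with the NFKB2 product, was at 3.85, 1.63 and 7.31 CPM in DU145, a wide spread. In the 3 other lines RELB did not exceed 1.41 CPM in mono-culture, and 8 of all 36 libraries held 3 counts or fewer of it. Its difference between DU145 and 22Rv1 was lost without DU145 mono-culture replicate 3 (log2 1.41, edgeR adjusted p = 0.057), and 22Rv1 was called above C4-2B without 22Rv1 mono-culture replicate 1 (1.99, adjusted p = 0.041) or C4-2B mono-culture replicate 2 (2.29, adjusted p = 0.039).

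NFKBIA, the gene of IκBα, had the order DU145, C4-2B, C4-2 and 22Rv1. It read 340, 325 and 355 CPM in DU145 mono-cultures, 129, 137 and 134 in C4-2B, 121, 112 and 128 in C4-2, and 76.6, 77.9 and 83.7 in 22Rv1. The step from C4-2B to C4-2 was not called (log2 0.19, edgeR adjusted p = 0.10), while both steps around it were. NFKBIE, the gene of IκBε, lay between 22.1 and 22.8 CPM in DU145 and between 3.12 and 4.59 CPM elsewhere.

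NFKB2, which encodes p100 and its product p52, was highest in 22Rv1 at 98.1, 97.3 and 95.2 CPM. DU145 followed at 85.6, 85.1 and 80.1 CPM, and this small step was called (log2 -0.20 ± 0.07, edgeR adjusted p = 0.022) but lost without DU145 mono-culture replicate 3 (adjusted p = 0.10). C4-2 and C4-2B were between 26.4 and 30.4 CPM and were not called apart. NFKBIZ, the gene of the nuclear protein IκBζ, was likewise highest in 22Rv1, at 14.6, 16.8 and 15.7 CPM against 2.71 to 7.07 CPM elsewhere. RELA, the p65 subunit, had the smallest of the members' largest differences between lines, a log2 difference of 1.07 between DU145 and 22Rv1, and its mono-cultures ranged from 38.8 to 86.6 CPM. MAP3K8, the kinase that is held by the NFKB1 product p105, was lowest in 22Rv1 at 1.49, 2.03 and 1.02 CPM and highest in DU145 at 10.0, 10.3 and 10.5 CPM.

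Levels of different genes were set side by side after division by GENCODE 29 transcript lengths. If the deposited values were already scaled for length, as the paper describes for its own counts, this divides by length a second time. On that scale NFKBIA was the highest member in mono-cultures of C4-2, C4-2B and DU145, at means of 93.2, 108 and 268. In 22Rv1 NFKB2 came first, at 67.6, with NFKBIA next at 58.4. RELA stood between 23.4 and 49.2 by line, above NFKB1, which stood between 3.62 and 9.75. RELB was at 0.225, 0.457, 0.880 and 4.08 in C4-2, C4-2B, 22Rv1 and DU145. In CPM the same genes came first. NFKBIA had means of 120, 133 and 340 CPM in C4-2, C4-2B and DU145, and in 22Rv1 NFKB2 was at 96.9 CPM and NFKBIA at 79.4 CPM.

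**Figure D1:**
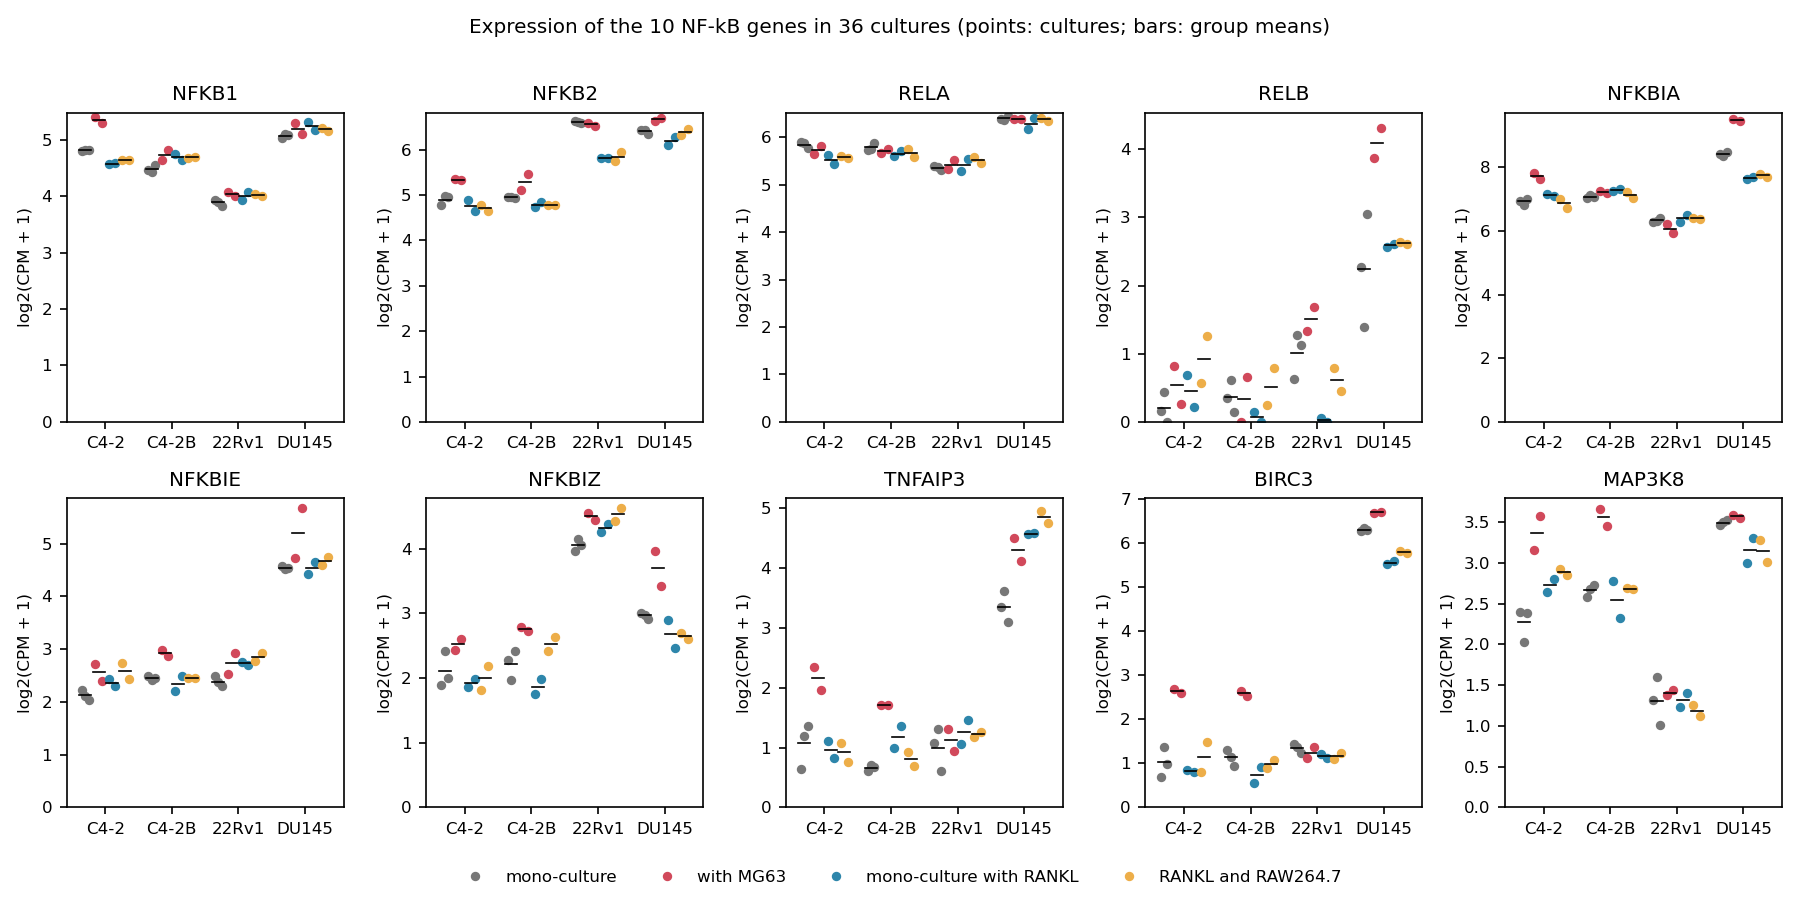
Level of each member, as log2(CPM + 1), in all 36 cultures by cell line, with points for cultures and bars for group means, coloured by culture. In mono-culture DU145 sits above the other lines for BIRC3, TNFAIP3, NFKBIA, NFKBIE and RELB, and the MG63 co-cultures of C4-2 and C4-2B sit above their mono-cultures for BIRC3, TNFAIP3 and MAP3K8.

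The co-cultures with MG63 cells address how OB-like cells change the PCa cells. With MG63, 6 of the 10 members rose in C4-2, beside 10.1% of all genes called and 5.3% called higher. In C4-2B 5 rose, beside 7.41% called and 3.52% called higher. In DU145 8 rose, beside 30.5% and 15.2%, and in 22Rv1 2 rose, beside 20.4% and 11.2%. No member was called lower in any line. In bulk RNA a larger share of responding cells and more RNA per cell cannot be told apart. The median log2 change of the members was 0.79 in C4-2, 0.53 in C4-2B, 0.64 in DU145 and 0.26 in 22Rv1, where the median of all genes tested was between -0.06 and 0.00. All co-culture values lay above all mono-culture values for 8 members in C4-2, 8 in C4-2B, 8 in DU145 and 4 in 22Rv1, beside 14.8%, 17.2%, 12.7% and 20.2% of all genes, and below them for 2 members in 22Rv1, beside 41% of all genes. Without DU145 MG63 replicate 2, 6 members rose in DU145 (NFKBIE and RELB were lost), beside 14.9% of all genes called, and their median change was 0.39. By a fold above 2 with an unadjusted p under 0.05, the counts were 3 in C4-2, 3 in C4-2B, 3 in DU145 and 0 in 22Rv1. These stand beside 2.61%, 2.4%, 4.48% and 2.67% of all genes. In 22Rv1 4 members had an unadjusted p under 0.05, beside 33.0% of all genes, and DESeq2 called 2. Fitted on its own 5 libraries, DU145 had no member called by edgeR (8 at an unadjusted p under 0.05), with NFKBIA at 1.22 (adjusted p = 0.051), while DESeq2 on the 20 libraries called 8.

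Among the subunits, NFKB1 and NFKB2 rose and RELA did not. NFKB1, which encodes p105 and its product p50, read 26.9, 27.1 and 27.1 CPM in C4-2 alone and 41.1 and 38.3 CPM with MG63. The groups stood well apart, with a log2 change of 0.66 ± 0.07 (SE; edgeR adjusted p = 1.1e-05). In C4-2B it went from 21.2, 20.4 and 22.3 CPM to 24.1 and 27.1 CPM, a log2 change of 0.33 ± 0.07 (edgeR adjusted p = 0.0084). That call was lost without MG63 replicate 2 (log2 0.25, adjusted p = 0.14). The rises in DU145 (log2 0.20, edgeR adjusted p = 0.034) and 22Rv1 (0.27, adjusted p = 0.020) were small. In DU145 the value was 0.09 (adjusted p = 0.36) without MG63 replicate 1 and 0.30 (adjusted p = 0.0077) without replicate 2, and the call was also lost without mono-culture replicate 1 (adjusted p = 0.072) or 3 (0.053). In 22Rv1 it was lost without MG63 replicate 1 (adjusted p = 0.18) or 2 (0.090) or mono-culture replicate 3 (0.065).

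NFKB2 went from 26.4, 30.4 and 29.9 CPM in C4-2 alone to 39.7 and 39.1 CPM with MG63 (log2 0.56 ± 0.09, edgeR adjusted p = 5.3e-04). Both co-cultures were above every mono-culture. In C4-2B the co-cultures differed from each other, at 33.8 and 43.3 CPM, and the mono-cultures were at 30.2, 30.2 and 29.4 CPM (log2 0.42 ± 0.09, edgeR adjusted p = 0.0064). Without MG63 replicate 2 the call was lost (log2 0.24, adjusted p = 0.17). In DU145 the change was 0.34 ± 0.08 (edgeR adjusted p = 0.0069), from 85.6, 85.1 and 80.1 CPM to 98.2 and 103 CPM, and it was 0.31 (adjusted p = 0.028) without MG63 replicate 2. In 22Rv1, where NFKB2 was already highest, the co-culture values of 95.1 and 91.4 CPM were not called.

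RELA was not called in any line, with log2 changes from -0.02 to 0.18 and a standard error of 0.07 or 0.08. The DU145 change was 0.07 both with and without MG63 replicate 2. In 22Rv1 it was called without MG63 replicate 1 (log2 0.29, edgeR adjusted p = 0.047). In C4-2 its mono-cultures were at 58.3, 58.1 and 53.3 CPM and its co-cultures at 49.3 and 55.6 CPM, which overlap. In DU145 MG63 replicate 2, 19.4 CPM of RELA were assigned to RELA-204, a nonsense-mediated decay transcript that held no counts in replicate 1.

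RELB was called in DU145 only, where it went from 3.85, 1.63 and 7.31 CPM to 13.6 and 18.9 CPM (log2 2.00 ± 0.61, edgeR adjusted p = 0.021). The groups did not overlap, but the call was lost without MG63 replicate 2 (log2 1.75, adjusted p = 0.12) and without mono-culture replicate 1 (0.059) or 2 (0.069). Its protein-coding transcript RELB-201 held 5.77 and 6.63 CPM in those co-cultures and under 1e-04 CPM in every other DU145 library. Whether the rise of RELB differed between DU145 and 22Rv1 was tested and not called (log2 1.09 ± 0.98, adjusted p = 0.51).

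Among the IκB genes, NFKBIA rose in C4-2 and in DU145. In C4-2 it went from 121, 112 and 128 CPM to 223 and 196 CPM, a log2 change of 0.91 ± 0.08 (edgeR adjusted p = 4.5e-06). In DU145 it went from 340, 325 and 355 CPM to 733 and 704 CPM, a log2 change of 1.15 ± 0.08 (edgeR adjusted p = 5.0e-07), and 1.18 without MG63 replicate 2. These were the highest NFKBIA levels among the 36 libraries. In C4-2B the co-cultures, at 150 and 146 CPM, lay above all mono-cultures but were not called (log2 0.21, adjusted p = 0.14), and in 22Rv1 they were at 72.6 and 59.8 CPM, below all mono-cultures and not called (log2 -0.15, adjusted p = 0.23).

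The DU145 co-cultures were alike in their NFKBIA total and unlike in its transcripts. Its protein-coding transcript NFKBIA-201 held 621 CPM in MG63 replicate 1 and 414 CPM in replicate 2, both above the 269 to 292 CPM of the mono-cultures. NFKBIA-203, a nonsense-mediated decay transcript, held 1.09 CPM in replicate 1 and 219 CPM in replicate 2, which is 31.0% of the gene there. In the 34 other libraries it held at most 0.916 CPM.

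NFKBIE was called in DU145 only, at 22.8, 22.1 and 22.3 CPM alone and 25.5 and 50.04 CPM with MG63 (log2 0.82 ± 0.19, edgeR adjusted p = 0.0048). The second co-culture carries this value, since without it the change was 0.26 ± 0.14 (adjusted p = 0.22). In C4-2B the co-cultures were at 6.89 and 6.34 CPM against 4.34 to 4.59 CPM alone, a change of 0.63 that was not called (adjusted p = 0.11). NFKBIZ rose in DU145, from 7.07, 6.88 and 6.53 CPM to 14.6 and 9.77 CPM (log2 0.92 ± 0.19, edgeR adjusted p = 0.0028), and by 1.17 without MG63 replicate 2. In 22Rv1 it went from 14.6, 16.8 and 15.7 CPM to 22.5 and 20.8 CPM (log2 0.57 ± 0.18, edgeR adjusted p = 0.031). The 22Rv1 groups did not overlap, yet the call was lost without MG63 replicate 1 (adjusted p = 0.16) or 2 (0.12) or mono-culture replicate 1 (0.094) or 3 (0.068). NFKBIZ read 0.63 in C4-2 and 0.70 in C4-2B, neither called, and the C4-2 value was 0.85 without mono-culture replicate 2 (edgeR adjusted p = 0.020).

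TNFAIP3 rose in C4-2, C4-2B and DU145. In C4-2 it went from 0.565, 1.299 and 1.58 CPM to 4.10 and 2.92 CPM (log2 1.72 ± 0.38, edgeR adjusted p = 0.0081). Without MG63 replicate 1 the value was 1.48 and the call was lost (adjusted p = 0.12). In C4-2B it went from 0.527, 0.631 and 0.590 CPM to 2.26 and 2.30 CPM (log2 2.04 ± 0.44, edgeR adjusted p = 0.0089), with adjusted p = 0.087 without MG63 replicate 1 and 0.063 without replicate 2. The groups stood apart in both BPCa lines, at levels where a C4-2B library held 19.0 to 31.7 counts of the gene. In DU145 TNFAIP3 went from 9.19, 11.3 and 7.60 CPM to 21.6 and 16.4 CPM (log2 1.09 ± 0.30, edgeR adjusted p = 0.014). The DU145 value was 1.28 (adjusted p = 0.022) without MG63 replicate 2, and the call was lost without MG63 replicate 1 (0.86, adjusted p = 0.061) or mono-culture replicate 3 (0.97, adjusted p = 0.052). In 22Rv1 the groups overlapped, at 0.525 to 1.48 CPM alone and 1.49 and 0.921 CPM with MG63.

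BIRC3 had the largest called change of the members in C4-2 and in C4-2B. In C4-2 it went from 0.621, 1.59 and 0.994 CPM to 5.45 and 5.04 CPM, a log2 change of 2.44 ± 0.24 (edgeR adjusted p = 7.6e-06). In C4-2B it went from 1.49, 1.22 and 0.925 CPM to 5.29 and 4.78 CPM, a log2 change of 2.10 ± 0.23 (edgeR adjusted p = 6.2e-05). Every co-culture was above every mono-culture in both lines. In DU145, where mono-cultures already held 76.3 to 80.9 CPM, the co-cultures held 103 and 104 CPM (log2 0.47 ± 0.14, edgeR adjusted p = 0.016, and 0.025 without MG63 replicate 2). In 22Rv1 the co-cultures, at 1.17 and 1.60 CPM, overlapped the mono-cultures at 1.73, 1.60 and 1.34 CPM (log2 -0.04 ± 0.32). Most of the rise lay on the protein-coding transcript ENST00000263464, which held 0.422 to 0.467 CPM in C4-2 mono-cultures and 3.89 and 3.97 CPM with MG63. In 22Rv1 mono-cultures a mean of 59.3% of BIRC3 counts were on BIRC3-205, a processed transcript of 607 bases with no coding sequence in the annotation.

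MAP3K8 was called in both BPCa lines and in neither LPCa line. In C4-2 it went from 4.27, 3.09 and 4.25 CPM to 7.91 and 10.95 CPM (log2 1.39 ± 0.19, edgeR adjusted p = 2.0e-04). In C4-2B it went from 5.00, 5.40 and 5.63 CPM to 11.6 and 10.0 CPM (log2 1.08 ± 0.19, edgeR adjusted p = 0.0024), and the call was lost without MG63 replicate 1 (log2 0.95, adjusted p = 0.060). DU145 was at 10.0, 10.3 and 10.5 CPM alone and 11.1 and 10.7 CPM with MG63 (log2 0.15 ± 0.19, and 0.19 without MG63 replicate 2), near the BPCa co-cultures, a comparison of levels that was not tested. The 22Rv1 cultures stayed between 1.02 and 2.03 CPM.

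**Figure D2:**
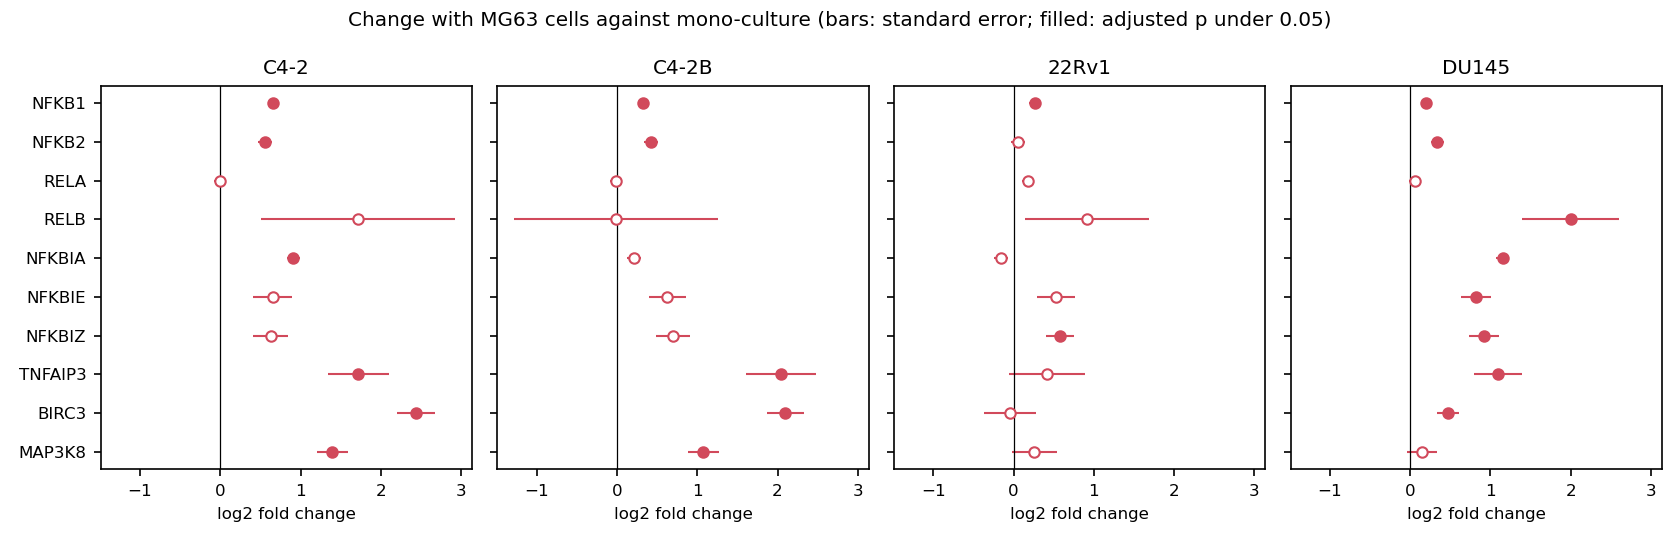
Log2 fold change of each member with MG63 cells against mono-culture without RANKL, in 4 panels by cell line, with bars for the standard error and filled points for an adjusted p under 0.05. BIRC3 reads 2.44 in C4-2 and 2.10 in C4-2B against 0.47 in DU145 and -0.04 in 22Rv1, RELA lies between -0.02 and 0.18, and the RELB errors are wide.

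The markers of MG63 cells gave a check on RNA carried across the filter. Of 10 genes listed for this (COL1A1, COL1A2, COL3A1, COL6A3, LUM, POSTN, TWIST1, PRRX1, THY1 and LOX), 7 were at 3 counts or fewer in the MG63 co-cultures of C4-2 and 7 in those of C4-2B. Their summed level was 5.00 to 8.53 CPM in C4-2 with MG63 and 8.07 to 8.89 CPM alone, and 4.45 to 5.76 CPM in C4-2B with MG63 and 7.35 to 9.41 CPM alone. In DU145 the sum was 10.3 to 11.7 CPM with MG63 and 6.94 to 9.63 CPM alone, with 7 of 10 at 3 counts or fewer and LOX as the leading gene. In 22Rv1 it was 54.4 to 56.6 CPM with MG63 and 38.3 to 41.3 CPM alone, where TWIST1, already the leading gene in mono-culture, gave most of it. POSTN was at 0 counts in both co-cultures of C4-2, C4-2B and DU145. The part of this difference in the LPCa results was not tested.

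The mono-cultures with RANKL can serve as a second control, of similar depth to the co-cultures, and this alternative was listed with the main tests. The MG63 co-cultures held no RANKL, so with this control the effect of MG63 cells cannot be told apart from the lack of RANKL. The 2 kinds of comparison share the co-cultures. All 6 calls in C4-2 were made in the same direction with this control too, beside 10.3% of all genes called. In C4-2B 3 of the 5 calls were (BIRC3, MAP3K8 and NFKB2), beside 7.63%, and NFKBIZ was called as well (1.08, edgeR adjusted p = 0.0087). In DU145 6 of the 8 were, beside 36.5%. These 6 include NFKBIE and RELB, whose main calls were lost without DU145 MG63 replicate 2. This control was compared only with that replicate included. Neither of the 2 calls in 22Rv1 was, beside 15.3%, where NFKB2 was called in their place, as was RELB against a control at the count floor. BIRC3 read 2.75 in C4-2, 2.87 in C4-2B and 1.17 in DU145 with this control.

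Some members changed with the control. TNFAIP3 in DU145 read 1.09 against mono-cultures without RANKL and -0.26 against those with it (edgeR adjusted p = 0.49), which were at 22.7 and 23.0 CPM. NFKB1 in DU145 read 0.20 and -0.04 (edgeR adjusted p = 0.72), and in C4-2B 0.33 and 0.01 (adjusted p = 0.99). NFKB2 in 22Rv1 read 0.06 and 0.82 (edgeR adjusted p = 1.5e-06), and TNFAIP3 in C4-2B read 2.04 and 0.81 (adjusted p = 0.33).

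**Figure D3:**
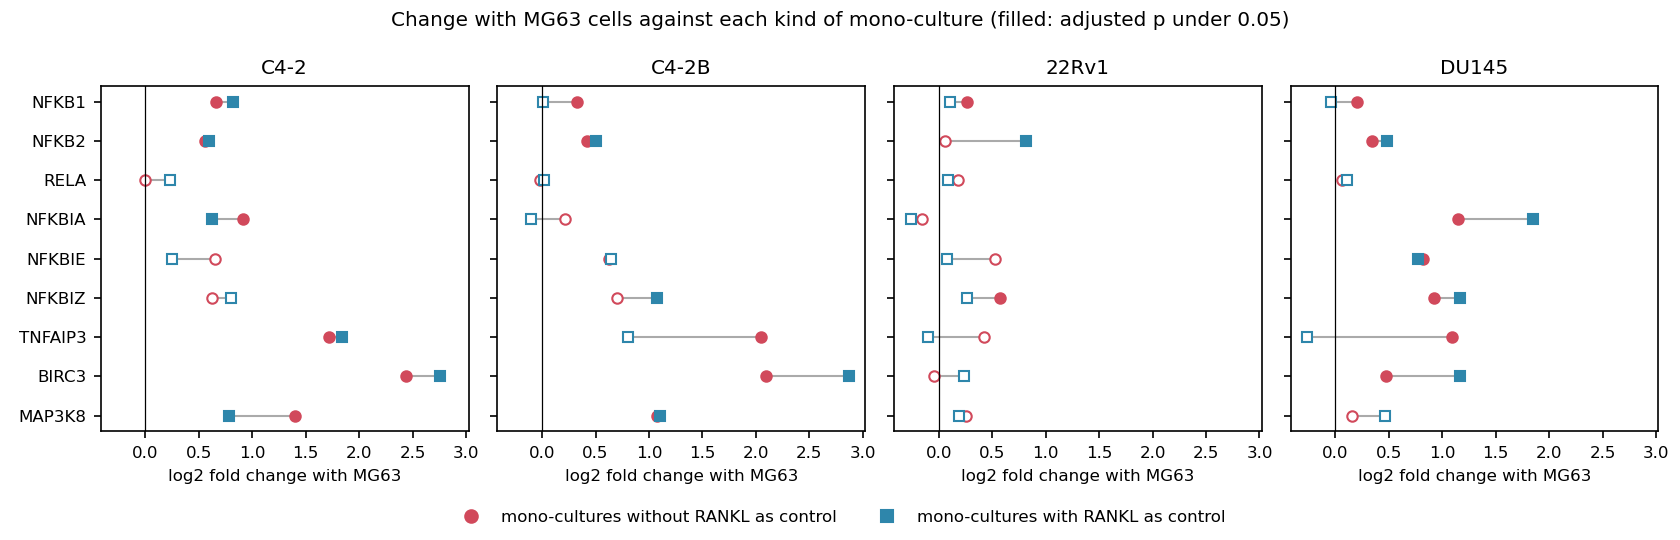
Log2 fold change of 9 members with MG63 cells, against mono-cultures without RANKL (circles) and with RANKL (squares), by cell line, with filled symbols for an adjusted p under 0.05. RELB is left out because it was near 0 in several of these groups, and in DU145 the symbols of TNFAIP3 lie on opposite sides of 0, at 1.09 and -0.26.

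The study contrasts BPCa with LPCa, so the difference of the MG63 changes between the classes was tested itself. It was called for 4 of the 10 members, beside 9.85% of all genes. BIRC3 rose more in the BPCa lines, by 2.05 ± 0.24 on the log2 scale (edgeR adjusted p = 9.8e-05). MAP3K8 did so by 1.03 ± 0.22 (edgeR adjusted p = 0.0079). The differences of NFKB2 (0.29, edgeR adjusted p = 0.040) and NFKB1 (0.26, adjusted p = 0.030) were small, and the call was lost in 14 and 6 of the 20 omissions of 1 library (adjusted p up to 0.11 and 0.074). Against the mono-cultures with RANKL, beside 20.4% of all genes, MAP3K8 read 0.62 (edgeR adjusted p = 0.079) and NFKB2 -0.10 (adjusted p = 0.52), while NFKBIA read -0.54 (adjusted p = 2.6e-04). The BIRC3 difference stayed called in all 27 alternatives run, with values between 1.91 and 2.24. For TNFAIP3 the difference of 1.12 ± 0.40 was not called (edgeR adjusted p = 0.085). It was called without DU145 MG63 replicate 1 (adjusted p = 0.024), without 22Rv1 mono-culture replicate 3 (0.041) and against the mono-cultures with RANKL (1.51, adjusted p = 0.015). RELA, NFKBIE and NFKBIZ read between -0.13 and -0.03, and RELB read -0.60 ± 1.03 (adjusted p = 0.75). The levels reached do not follow the changes, since BIRC3 with MG63 stood at 5.25 ± 0.29 CPM (SD, n = 2) in C4-2 and 103 ± 0.73 CPM (SD, n = 2) in DU145.

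Lines of the same class also differed, and NFKBIA was the member called in both tests. It rose less in C4-2B than in C4-2, by -0.70 ± 0.12 (edgeR adjusted p = 0.025), the sole member called beside 0.179% of all genes. This call was lost in 7 of the 10 omissions of 1 library, with values from -0.78 to -0.62. They were C4-2 mono-culture replicates 1 and 2, C4-2B mono-culture replicates 2 and 3, C4-2 with MG63 replicate 1 and both C4-2B co-cultures (adjusted p up to 0.20). By a fold above 2 with an unadjusted p under 0.05 no member was called in this test, beside 1.32% of all genes. At an unadjusted p under 0.05 alone there were 2 members, beside 5.70% of all genes, and DESeq2 called 1. NFKBIA rose more in DU145 than in 22Rv1, by 1.303 ± 0.12 (edgeR adjusted p = 1.1e-05, and 1.34 without DU145 MG63 replicate 2), again the sole member called beside 10.4% of all genes. Without DU145 MG63 replicate 1, NFKBIE (0.70, adjusted p = 0.0071) and NFKB2 (0.31, adjusted p = 0.042) were called as well. Against the mono-cultures with RANKL, 2 members were called in each of these tests, beside 5.05% and 22.4% of all genes.

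Other genes of the pathway were described from lists of regulators, of receptors and ligands, and of textbook targets. Of 23 other subunits and regulators tested (24 listed), 3 rose and none fell in C4-2, 2 rose and none fell in C4-2B, 7 rose and 1 fell in DU145, and 3 rose and 2 fell in 22Rv1. BCL3, a nuclear partner of the p50 and p52 dimers, rose in C4-2 (means of 13.5 CPM alone and 30.4 CPM with MG63, log2 1.28 ± 0.13, edgeR adjusted p = 1.1e-05). It also rose in C4-2B (log2 0.71) and 22Rv1 (log2 1.04 ± 0.14, adjusted p = 7.4e-05). In DU145 BCL3 was not called with both co-cultures and read 0.49 without MG63 replicate 2 (edgeR adjusted p = 0.0091). The shares of all genes called in these lines were 10.1%, 7.41%, 30.5% and 20.4%. In DU145 the largest called changes were those of NFKBIB (1.09) and NFKBID (1.02), further IκB genes, and of TNIP1 (0.84), a partner of A20. Without DU145 MG63 replicate 2, a choice made after the data were seen, they read 0.34, 0.84 and 0.77. The median change over the regulators was 0.06, 0.10, 0.08 and -0.01 in C4-2, C4-2B, DU145 and 22Rv1. In DU145 it was 0.15 without that replicate.

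Upstream receptors and ligands, and textbook targets, are read beside the same shares of all genes called. These were 10.1% in C4-2, 7.41% in C4-2B, 30.5% in DU145 and 20.4% in 22Rv1. Of 9 tested (18 listed), TNFRSF1A rose in C4-2 (log2 0.28 ± 0.05, edgeR adjusted p = 0.0036), LTB and LTBR, the lymphotoxin β ligand and receptor, rose in DU145 (1.86 and 0.64), and none was called in C4-2B or 22Rv1. LTBR was at 158.9 to 170.8 CPM in DU145 alone and 167.4 and 328.9 CPM with MG63. Without MG63 replicate 2 LTBR read 0.09, and LTB was under the count minimum. Of 24 textbook targets tested (30 listed), 13 rose and none fell in C4-2, and 12 rose and none fell in C4-2B. In DU145 15 rose and 1 fell, and in 22Rv1 4 rose and none fell. LCN2 and CSF2 reached the count minimum only in MG63 co-cultures, so they entered the test through the groups where they were high. Mono-cultures without RANKL held at most 22.2 counts of LCN2 and 23.8 of CSF2. The median target change was 0.82, 0.90, 0.95 and 0.37 in C4-2, C4-2B, DU145 and 22Rv1. In DU145 it was 0.81 without MG63 replicate 2.

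Some targets, like BIRC3, had a low level in BPCa mono-cultures and a large change. CXCL8, the neutrophil chemokine IL-8, was at 0.0318 to 0.120 CPM in C4-2 mono-cultures and 2.04 to 2.09 CPM with MG63, and at 18.3 to 20.9 CPM in DU145 mono-cultures and 133 to 175 CPM with MG63. LCN2, a secreted iron-siderophore carrier, was at no more than 0.336 CPM in mono-cultures of C4-2 and C4-2B, at 26.2 to 27.8 CPM in C4-2 with MG63 and at 33.6 to 37.9 CPM in C4-2B with MG63. It reached 5.84 to 9.75 CPM in DU145 with MG63 and at most 0.226 CPM in 22Rv1 with MG63. SAA1, an acute-phase gene, was listed at 0 in all 6 mono-cultures of C4-2 and C4-2B and at 18.4 to 19.7 CPM and 8.55 to 9.43 CPM in their co-cultures. In DU145 it was at 3.97 to 4.63 CPM alone and 28.1 to 46.6 CPM with MG63 (log2 3.18 ± 0.26, edgeR adjusted p = 2.5e-05, and 2.78 without MG63 replicate 2).

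RANKL acts on RANK, so the mono-cultures with and without it address what RANKL itself does to the PCa cells. Here RANKL cannot be told apart from depth, since all 12 mono-cultures without RANKL were sequenced more deeply than all with it. In DU145 4 of the 10 members were called, beside 32.5% of all genes. In 22Rv1 2 were called, beside 17.7%, in C4-2 2, beside 18.3%, and in C4-2B 2, beside 14.4%. The members' share was thus close to that of all genes in each line. By a fold above 2 with an unadjusted p under 0.05, 1 member was called in DU145, 1 in 22Rv1 and 1 in C4-2B, beside 5.83%, 2.98% and 3.21% of all genes. None was called so in C4-2, beside 3.05%. In C4-2 4 members had an unadjusted p under 0.05, beside 30.7% of all genes, and DESeq2 called 2.

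In DU145 the members moved in opposite directions. TNFAIP3 rose from 9.19, 11.3 and 7.60 CPM to 22.7 and 23.0 CPM (log2 1.39 ± 0.25, edgeR adjusted p = 1.0e-04). NFKBIA fell from 340, 325 and 355 CPM to 195 and 205 CPM (log2 -0.66 ± 0.09, edgeR adjusted p = 2.0e-06), and BIRC3 fell from 76.3, 80.9 and 77.8 CPM to 45.1 and 47.5 CPM (log2 -0.65 ± 0.13, adjusted p = 4.8e-04). For each of these genes the groups did not overlap. NFKB1 rose slightly (log2 0.28, edgeR adjusted p = 6.0e-04), a call that was lost without RANKL replicate 1 (adjusted p = 0.086).

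In 22Rv1 NFKB2 fell from 98.1, 97.3 and 95.2 CPM to 55.7 and 55.7 CPM (log2 -0.77 ± 0.09, edgeR adjusted p = 1.2e-06). One of its protein-coding transcripts went from a mean of 43.5 to 29.2 CPM, and its mean share of the gene from 45.0% to 52.4%. RELB was also called lower in 22Rv1 (edgeR adjusted p = 0.033), from 0.552, 1.41 and 1.19 CPM to 0.449 counts in both RANKL libraries together. That makes it at least 7.43-fold lower, against 3 counts over the group, and the call was lost in 4 of 11 alternatives (adjusted p up to 0.19), each of which left out 1 of the libraries: mono-culture replicate 2 or 3, or RANKL replicate 1 or 2. In C4-2 MAP3K8 (log2 0.61, adjusted p = 0.032) and NFKBIA (0.29, adjusted p = 0.020) rose, and in C4-2B NFKB1 (0.31, edgeR adjusted p = 0.0014) and NFKBIA (0.30, adjusted p = 0.017) rose. Each of these 4 calls rested on single libraries. In C4-2 both were lost without mono-culture replicate 2 or either RANKL culture (adjusted p up to 0.22 for MAP3K8 and 0.16 for NFKBIA), and RELA was called without RANKL replicate 1 (log2 -0.34, adjusted p = 0.049). In C4-2B NFKB1 was lost without RANKL replicate 1 (adjusted p = 0.052), and NFKBIA without mono-culture replicate 1 or 3 or either RANKL culture (adjusted p up to 0.18). NFKBIE (log2 -0.03 to 0.45) and NFKBIZ (-0.40 to 0.31) were not called with RANKL in any line.

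The RANKL changes differed between the classes for 2 members, beside 16.5% of all genes. NFKBIA moved up in BPCa lines relative to LPCa lines (0.58 ± 0.09, edgeR adjusted p = 3.5e-05), as did NFKB2 (0.37 ± 0.09, adjusted p = 0.0060). NFKBIA was called lower in DU145 and not in 22Rv1, where its means were 79.4 CPM without RANKL and 83.6 CPM with it. NFKB2 was called lower in 22Rv1 only. Its means with RANKL were also lower in C4-2 (28.9 to 26.3 CPM), C4-2B (29.9 to 26.6 CPM) and DU145 (83.6 to 72.5 CPM). Neither passed a fold above 2, and no other member did with an unadjusted p under 0.05, beside 3.4% of all genes. At an unadjusted p under 0.05 alone there were 4 members, beside 28.5% of all genes, and DESeq2 called 2. TNFRSF11A, which encodes RANK itself, was at 2.35 to 3.02 CPM in DU145 without RANKL and 5.03 to 5.10 CPM with it (log2 1.01 ± 0.26, edgeR adjusted p = 0.0037). In 22Rv1 it was at 0.325 to 0.702 CPM without RANKL and 0.959 to 1.37 CPM with it (log2 1.24 ± 0.37, adjusted p = 0.021). In C4-2 and C4-2B it was between 1.24 and 2.08 CPM in these cultures and was not called.

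Among the lists under RANKL, 5 regulators rose and 4 fell in DU145, where 2 receptors or ligands rose and 3 fell, and 10 of 25 targets rose and 4 fell. In 22Rv1 3 regulators rose and 1 fell, 1 receptor or ligand rose and 1 fell, and 2 targets rose. In C4-2 1 regulator rose and 1 fell, 1 receptor or ligand rose and 4 targets rose. In C4-2B 2 regulators rose and 2 fell, no receptor or ligand was called, and 1 target rose and 2 fell. The shares of all genes called with RANKL were 32.5% in DU145, 17.7% in 22Rv1, 18.3% in C4-2 and 14.4% in C4-2B. BCL2A1 (log2 3.70) and CSF2 (2.52) rose and SAA1 (-3.50) fell with RANKL in DU145. BCL2A1, which is among the 10 targets that rose, reached the count minimum only in DU145 cultures that held RANKL, alone or with RAW264.7 cells. It therefore entered the test through the groups where it was high. DU145 mono-cultures without RANKL held at most 30.1 counts of it.

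**Figure D4:**
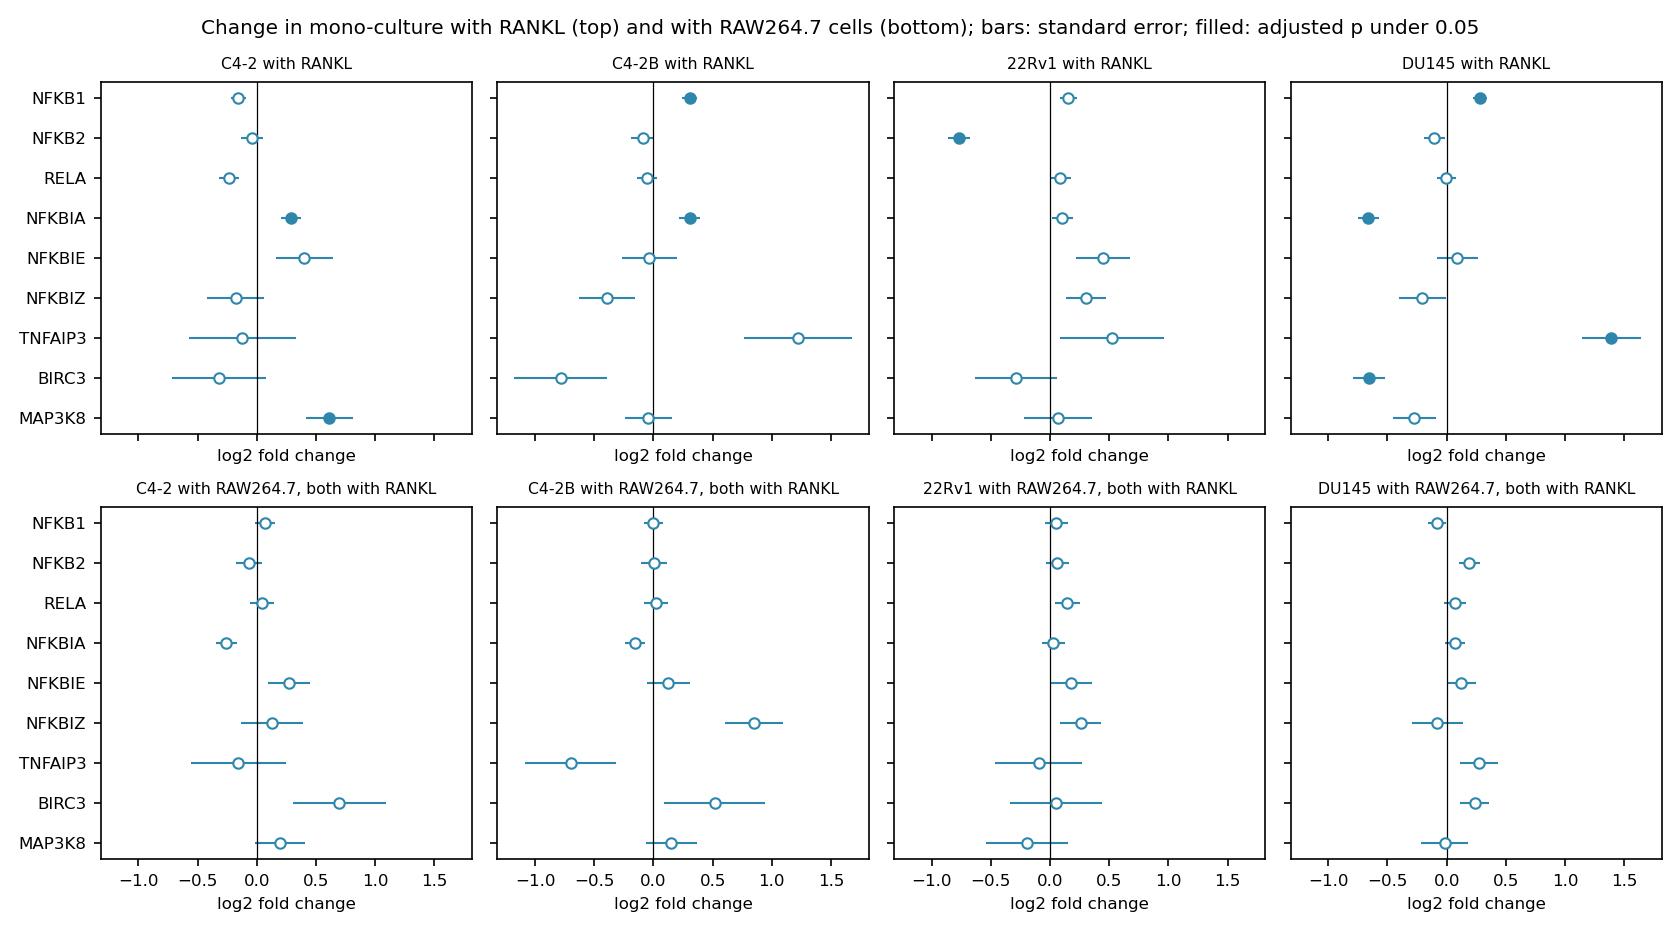
Log2 fold change of 9 members in mono-cultures with RANKL against those without it (top) and with RAW264.7 cells against mono-cultures that also held RANKL (bottom), by cell line, with bars for the standard error and filled points for an adjusted p under 0.05. In DU145 TNFAIP3 sits at 1.39 with NFKBIA and BIRC3 near -0.66 in the top row, and no point is filled in the bottom row.

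The RAW264.7 co-cultures were compared with mono-cultures at the same RANKL dose and a similar depth, which addresses the effect of OC precursors. In none of the 4 lines was any of the 9 members tested called by edgeR (RELB was under the count minimum), and DESeq2 called none either. All genes gave 0.0174% called in C4-2, 0.139% in C4-2B, 0.026% in DU145 and 0.00868% in 22Rv1. At an unadjusted p under 0.05, 1 member in C4-2 (NFKBIA, log2 -0.26 ± 0.09), 1 in C4-2B (NFKBIZ, log2 0.85 ± 0.24) and none in DU145 or 22Rv1 were found, beside 6.61%, 6.39%, 6.39% and 6.26% of all genes. The median change of the 9 members was between 0.02 and 0.07 in each line.

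Values with RAW264.7 are set beside those with RANKL alone for a few members. NFKBIZ in C4-2B, at 2.36 and 2.94 CPM with RANKL and 4.38 and 5.19 CPM with RAW264.7, did not overlap between the groups (edgeR adjusted p = 0.41). NFKB1 in C4-2 read 22.8 and 22.9 CPM with RANKL and 24.0 and 24.0 CPM with RAW264.7 added, against 41.1 and 38.3 CPM with MG63. BIRC3 in C4-2B read 0.472 and 0.877 CPM with RANKL and 0.864 and 1.11 CPM with RAW264.7. TNFAIP3 in DU145 read 22.7 and 23.0 CPM, and 29.9 and 26.0 CPM (log2 0.27 ± 0.16). Across the 4 lines the log2 changes ran from -0.07 to 0.19 for NFKB2, 0.02 to 0.15 for RELA, 0.12 to 0.27 for NFKBIE and -0.19 to 0.19 for MAP3K8. For the genes of low level the standard errors, up to 0.43 for BIRC3 in C4-2B, leave changes of that size below what could be called. None of the regulators (21 tested), receptors and ligands (7) or targets (18) was called with RAW264.7 in any line. The difference between BPCa and LPCa was called for none of the 9 members, beside 0.0781% of all genes. At an unadjusted p under 0.05 there was 1 member, beside 6.65% of all genes. The RAW264.7 cells are of mouse, and the macrophage markers PTPRC, CD68, CSF1R, LYZ, TYROBP and CTSS summed to 48.8 to 51.1 CPM in DU145 with them and 50.1 to 54.1 CPM with RANKL alone.

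As a description across the 16 groups, each member's mean log2(CPM + 1), centred within its line, was set against the mean of the other 9. BIRC3 followed the others most closely (Pearson r = 0.846), then NFKBIZ (0.804), MAP3K8 (0.770) and NFKBIE (0.738). RELA followed them least (0.191), then TNFAIP3 (0.380) and RELB (0.406). Of 13444 other genes, those most like the mean of the 10 members were PI3 (r = 0.975), which encodes the protease inhibitor elafin, SAA2 (0.950), SECTM1 (0.949), SAA1 (0.948) and CCL20 (0.925). The groups share lines, libraries and depth, so these values carry no test. PI3 was listed at 0 in C4-2 mono-cultures, at a mean of 6.74 CPM in C4-2 with MG63 and at 0 in every culture of 22Rv1. In DU145 it was at a mean of 0.340 CPM alone and 8.51 CPM with MG63.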

How the data were processed

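RNA was sequenced from poly-A, strand-specific libraries. The authors assigned reads to transcripts with kallisto and deposited estimated counts per transcript (expected counts, not whole, and not stated to be normalized). The paper describes tximport and scaled TPM counts for its own analysis, so the deposited values may already be scaled for transcript length. Whether they were was not tested. Per the labels the processing notes name FastQC, kallisto and hg19, and the transcript index release is not given in the sources used here. kallisto shares reads among transcripts with common sequence, so single transcripts are less certain than genes.

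Repeated lines were used once. Transcripts were summed per symbol and rounded, library totals kept all transcripts, and CPM was computed from those. Genes with 100 counts in at least 1 sample of a fit were tested with edgeR 4.0.16 (TMM, quasi-likelihood test, 2-sided) in R 4.3.3, with Benjamini-Hochberg adjustment over all genes, called at 0.05. The fits held the 20 samples without RANKL (MG63, line pairs), all 36 (RANKL) and the 16 with RANKL (RAW264.7), with 1 mean per line and culture. All 36 columns of values were used. The test script was checked on simulated counts. DESeq2 1.42.0 and the other alternatives are given in the closing section. Gene positions and lengths are from GENCODE 29 (GRCh38), start-site sequences from RefSeq (GRCh38.p14), and no coordinates came from the deposited table. matplotlib 3.10.9 drew the figures.

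The members and lists were chosen with earlier results of these data known. The rule for named genes was all 10 members, and from each list up to 4 called genes with the largest change. Members not called are given singly or as a range, and some are left to the counts. Equal replicate numbers did not pair the samples. A check of the cell lines against a list of lineage markers is not reported here.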

Additional observations from a re-analysis of the deposited data

Results flagged for a closer look

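Results are listed here where the change under a culture differed between lines or classes by a test of the difference itself (edgeR, adjusted over all genes). With MG63, BPCa minus LPCa on the log2 scale was 2.05 for BIRC3, 1.03 for MAP3K8, 0.29 for NFKB2 and 0.26 for NFKB1. BIRC3 rose in 4 of 4 BPCa co-cultures above every mono-culture of its line, and MAP3K8 did so as well. NFKBIA rose less in C4-2B than in C4-2, by -0.70, and more in DU145 than in 22Rv1, by 1.3. With RANKL, BPCa minus LPCa was 0.58 for NFKBIA and 0.37 for NFKB2, where RANKL cannot be told apart from depth.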

How the results depend on the processing

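Of the alternatives for single genes, 2882 values kept direction and side of the threshold, 123 changed sign while called under neither setting, 99 lost a call, 41 gained one and 4 reversed. The 4 reversed values all came from mono-cultures with RANKL as control: NFKB1 (-0.042) and TNFAIP3 (-0.26) in DU145 with MG63, and NFKB2 -0.10 and NFKBIA -0.54 for BPCa minus LPCa. The cause of these changes was not tested.

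The counts of members called moved as follows. At a fold above 2 and an unadjusted p under 0.05, the counts with MG63 were 3 in C4-2, 3 in C4-2B, 3 in DU145, 0 in 22Rv1 and 0 for C4-2B minus C4-2, and with RANKL 0 in C4-2, 1 in C4-2B, 1 in DU145, 1 in 22Rv1 and 0 for BPCa minus LPCa. With the samples of the line alone, 0 members were called by edgeR in DU145 with MG63 (8 at an unadjusted p under 0.05). With library totals only, 1 was called in 22Rv1 with MG63 and 1 in C4-2B with RANKL. With no filter, the edgeR counts were 0 in 22Rv1, 2 for BPCa minus LPCa and 0 for C4-2B minus C4-2 with MG63 (3, 6 and 2 at an unadjusted p under 0.05), and 1 in C4-2 and 1 in C4-2B with RANKL, and filterByExpr gave 2 for BPCa minus LPCa. DESeq2 gave 2 for DU145 minus 22Rv1, 7 in C4-2, 7 in C4-2B and 5 for BPCa minus LPCa with MG63, 3 in C4-2B with RANKL and 3 between C4-2 and C4-2B mono-cultures. Mono-cultures with RANKL as control gave 2 for C4-2B minus C4-2 and 2 for DU145 minus 22Rv1.

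Replicate numbers did not pair the samples (mean correlation of deviations -0.04 for mono-culture and MG63, 0.02 for the mono-cultures). With the replicate block, 1 member was called in 22Rv1 with MG63 and 1 in C4-2 with RANKL, and the calls lost were NFKBIZ in 22Rv1, NFKB1 in DU145 and MAP3K8 in C4-2.

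Leaving out 1 sample at a time, the MG63 counts ranged from 5 to 7 in C4-2, 2 to 5 in C4-2B, 6 to 7 in DU145, 0 to 2 in 22Rv1, 2 to 5 for BPCa minus LPCa, 0 to 1 for C4-2B minus C4-2 and 1 to 3 for DU145 minus 22Rv1. The RANKL counts ranged from 0 to 2 in C4-2, 0 to 2 in C4-2B, 3 to 4 in DU145 and 1 to 2 in 22Rv1, and the 44 calls between pairs of lines from 42 to 45. An arm left with 1 sample was assumed to vary like the other groups. Depth limits genes of few counts, such as RELB, which held 3 counts or fewer in 8 of 36 libraries.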
